A study of Mus musculus with 2 samples.

Results

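Molecular chaperones were followed on 2 microarrays of progenitors of innate lymphoid cells (ILCs), 1 from wild-type mice and 1 labelled as Yeats4 knockout. The chaperone genes were taken by symbol from the platform annotation, as all genes of the HSP families (HSP90, HSP70 and HSP110, HSP60 and HSP10, small HSP), the J proteins (DNAJA, DNAJB, DNAJC) and the CCT ring with Tcp1. This gave 79 genes, each with 1 probe set, of 19505 genes with a symbol on the arrays. The reference gene table lists 84 protein-coding genes under the same symbols, and the remaining 5, Hspa8, Hsp90ab1, Dnaja1, Dnajb5 and Cct6a, were not analysed here.

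Both samples were lineage-negative mouse cells sorted for CD127 and α4β7 integrin at intermediate levels of c-Kit and Sca-1. The wild type came from littermates of mice with a Yeats4 deletion. The Cre line or allele, the age of the mice and the number pooled are not given in the labels used here. Yeats4 encodes a YEATS domain reader of acetylated histones. With 1 array per genotype there are no replicates, no test and no p-value, and each difference below is between these arrays only.

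Chaperones bind unfolded or newly made proteins. HSP70 proteins bind and release clients in a cycle driven by ATP, which J proteins start and nucleotide exchange factors reset. HSP90 proteins finish the folding of kinases and receptors, and the closed chambers of HSP60 with HSP10 (in mitochondria) and of CCT (in the cytosol, for actin and tubulin above all) enclose whole proteins. BiP (Hspa5) and GRP94 (Hsp90b1) do this work in the endoplasmic reticulum (ER), and their genes answer to the unfolded protein response. The heat shock factor Hsf1 drives many of the cytosolic and mitochondrial ones.

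The promoters below are shown because they carry the response elements that define these programmes, and their genes include the ER chaperones that read higher on the knockout-labelled array. The sequences are from RefSeq (GRCm38.p6) and run 5′ to 3′ on the gene's strand, upstream of the annotated start site. Of the 79 genes, 66 had a promoter window, from 250 bases before to 50 bases after the start site. The ER stress response element, chosen after the values were seen, is CCAAT, then any 9 bases, then CCACG. It was searched on both strands. It was found in 3 of the 66 genes and in 0.137% of all 27025 genes with a window. It is in capitals in the first 3 sequences, and it includes a CCAAT box at its own end.

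Hspa5, chr2:34771960-34772059, plus strand: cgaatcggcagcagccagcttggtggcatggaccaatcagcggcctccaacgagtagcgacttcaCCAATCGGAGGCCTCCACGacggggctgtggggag

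Dnajc3, chr14:118937792-118937891, plus strand: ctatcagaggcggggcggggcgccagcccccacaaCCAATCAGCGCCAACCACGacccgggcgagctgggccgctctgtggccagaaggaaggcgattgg

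Hsp90b1, chr10:86705525-86705664, minus strand: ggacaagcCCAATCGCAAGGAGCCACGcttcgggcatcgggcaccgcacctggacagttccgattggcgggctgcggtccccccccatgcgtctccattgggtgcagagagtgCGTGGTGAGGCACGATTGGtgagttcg

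The full heat shock element alternates GAA and TTC, with 3 such triplets spaced by any 2 bases, on both strands. It was found in 4 of the 66 genes and in 0.662% of all genes with a window. The genes were Hspd1, Hspe1, Dnajb6 and Hsph1. Hspd1 and Hspe1 lie head to head and share the same pair of overlapping elements, since 285 bases of their windows are the same stretch read from opposite strands. In Hsph1 the element lies after the start site and is not printed. The stretch of Hspe1 that holds both overlapping elements, and that of Dnajb6, are shown with the elements in capitals.

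Hspe1, chr1:55088053-55088082, plus strand: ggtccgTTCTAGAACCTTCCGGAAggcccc

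Dnajb6, chr5:29735843-29735872, plus strand: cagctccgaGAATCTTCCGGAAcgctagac

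The CCAAT box (CCAAT or ATTGG) was found in 40.9% of the chaperone genes with a window and in 41.1% of all genes. The short element, GAA and then TTC after any 2 bases, which lies inside each full heat shock element, was found in 22.7% and 9.04%. None of the 8 CCT genes with a window held a full heat shock element or an ER stress response element within it. A match is a string of letters and does not show that a factor bound there.

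Values are log2 expression as deposited, and a difference is the value on the knockout-labelled array less that of the wild type. A gene was compared if its mean over both arrays reached 2.88, the median of all probe sets. This kept 10881 genes and 59 of the 79 chaperone genes. The level of the negative control probe sets (their 95th percentile, 4.80) was used to say whether a reading stood above background, and 36 chaperone genes did so on both arrays, 3 on 1 array and 20 on neither. The remaining 20 chaperone genes were under the level filter. The local spread is a scaled median absolute deviation of the differences of the 500 genes closest in mean. The local median is the median difference of the same genes. The spread holds real differences between genes as well as noise, and with 1 array per genotype the noise alone cannot be measured. Over bands of level the median difference ran from -0.04 for genes under a mean of 4 to 0.17 between 6 and 7. Members were therefore also counted against the local median, and the distance from it is printed for some of them. Medians of families and lists are of uncorrected differences unless a correction is named.

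Yeats4 itself read 5.96 in the wild type and 5.90 on the other array, and where its probes lie relative to the deletion is not known here, so it does not check the label. The cells may be a mixture, and markers of other blood cells moved between the arrays. Whether other cells or the sorted progenitors themselves gave these readings was not tested. Of 14 T cell markers 13 were at least 1.2-fold lower (median -1.12), where 19.1% of all genes were, and their summed linear level went from 913.2 to 340.4. Only 4 of the 14 were above background on both arrays, with a median of -0.93, and 3 were under it on both. Of 11 B cell markers 9 were lower by that fold (median -0.86 of the 10 tested, summed level 1425 to 797.4), and of 7 eosinophil markers 5 were (median -1.56 of the 6 tested, summed level 1982 to 680.6), beside the same 19.1% of all genes. Above background on both arrays were 7 of the B cell and 3 of the eosinophil markers. The eosinophil marker Ccr3 was higher (0.96) and above background on the knockout-labelled array only. Of 10 macrophage markers 9 were at least 1.2-fold higher (median 0.74 of the 9 tested, summed level 435.9 to 700.9), where 31.2% of all genes were. Cd5l and Adgre1 were under background on both arrays, and Marco, the remaining one, was under the filter. Of 13 granulocyte and monocyte markers 4 were at least 1.2-fold higher and 5 lower (median 0.15, summed level 11361 to 13254), where 31.2% and 19.1% of all genes were. Ctsg (0.72) and Prtn3 (0.55) were highest and Ltf (-0.55) and Mmp9 (-0.50) lowest. Mast cell and basophil markers had a median of 0.09 over the 6 tested (540.5 to 566.1), erythroid markers of 0.01 over the 4 tested (285.9 to 333.3), and NK and ILC1 markers of -0.44 over the 6 tested (932.4 to 799.8). Of 12 genes of the sort gate and of ILC progenitor identity, 9 read above background on both arrays, Zbtb16 in the wild type only, and Rora and Cxcr6 on neither. Il7r read 7.07 and 6.38, Kit 7.12 and 7.77, and Itgb7 6.46 and 6.32 on the wild-type and the other array. The highest differences were those of Id2 (1.23) and Kit (0.65) and the lowest those of Thy1 (-1.66) and Nfil3 (-0.93). The 12 had a median difference of -0.47 and a summed level of 1880 and 1702. In a bulk sample fewer cells of a type and less RNA per cell cannot be told apart. The part of these markers in the chaperone differences was not tested.

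The chaperone genes stood mostly higher on the knockout-labelled array, by small amounts. Of the 59 that passed the filter, 31 (52.5%) were at least 1.2-fold higher, where 31.2% of all genes were, and 1, Dnajb2, near background, was at least 1.2-fold lower, where 19.1% of all genes were. Their median difference was 0.30, against 0.08 for all genes. The 1324 positive control probe sets had a median difference of 0.18 and the 5222 negative controls of -0.009. Probe sets other than those of chaperones thus leaned higher too. Among the 36 above background on both arrays, 28 differences were above 0 and 8 below, where 66.6% of all such genes were above 0. Of the 36, 21 (58.3%) were at least 1.2-fold higher and 0 lower, where 32.1% and 9.57% of all such genes were. By deposited values Dnajc6 alone was 2-fold higher, where 1.56% of all genes were, but its wild-type reading was below background, so that only at least 1.28-fold is measured. None was 2-fold lower, where 0.781% of all genes were.

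The excess over all genes was smaller once the difference was corrected for level, and it depended on the fold chosen. With a loess correction of the difference on level, 22 of the 59 (37.3%) were at least 1.2-fold higher and 3 lower, where 23.8% and 23.5% of all genes were, and the median over the chaperone genes was 0.18. With quantile normalization of the table the counts were 24 and 3, where 24.2% and 23.3% of all genes were. These small folds were all chosen after the values were seen, and 5/4-fold was tried first. At 5/4-fold 28 (47.5%) were higher and 0 lower as deposited, where 25.9% and 15.6% of all genes were, and 15 (25.4%) and 1 after the loess correction, where 19.3% and 19.3% were. At 1.3-fold the counts were 22 and 0 as deposited, where 21.3% and 12.6% of all genes were, and 13 (22.03%) and 0 after the loess correction, where 15.9% and 15.3% were. The share of higher genes after the loess correction thus lay closer to that of all genes at 5/4-fold and 1.3-fold than at 1.2-fold. Read against the local spread, 14 of the 59 lay more than 1 spread above the local median and 3 more than 1 spread below, where 15.8% and 15.2% of all genes did. For the 36 above background these counts were 10 and 3, where 13.4% and 15.4% of all such genes did. The 10 were Hsp90aa1, Hsp90b1, Hspa5, Hspd1, Hspbp1, Dnajc13, Tcp1, Cct4, Cct2 and Cct5, and the 3 were the J protein genes Dnajb1, Dnajb12 and Dnajc9.

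**Figure D1:**
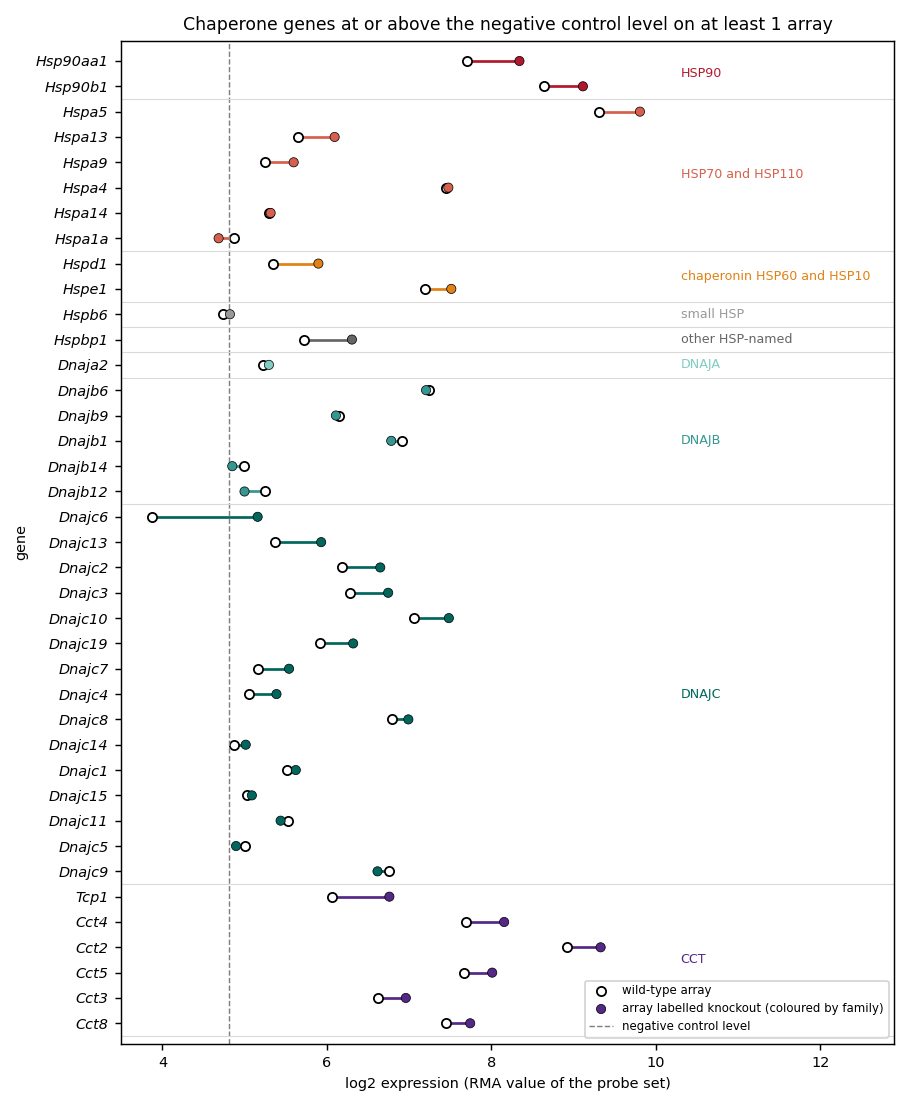
Log2 expression of the 39 chaperone genes that reached the negative control level (dashed line, 4.80) on at least 1 array. Open circles are the wild-type array and filled circles the knockout-labelled array, coloured by family. Each of the 6 CCT and 2 HSP90 pairs has its filled circle to the right, and all 5 DNAJB pairs have it to the left, of which Dnajb6 and Dnajb9 turn above 0 (to 0.0047 and 0.00047) when the arrays are centred.

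**Figure D2:**
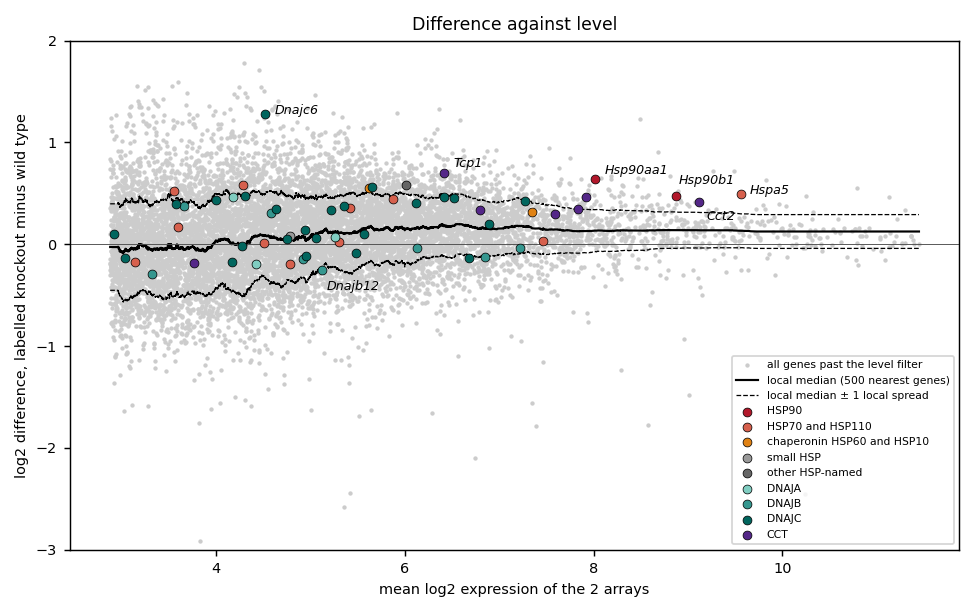
Difference between the arrays (log2, knockout-labelled less wild type) against the mean log2 level, for all 10881 genes past the level filter (grey) and the 59 chaperone genes (coloured by family). The solid line is the local median of the 500 nearest genes and the dashed lines lie 1 local spread from it. Hsp90aa1, Hsp90b1, Hspa5 and Cct2 lie above the upper dashed line, and the highest point is Dnajc6, whose wild-type reading was below background.

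The CCT ring differed in 1 direction. CCT is built of 8 different subunits, which the cell needs in equal number, and 6 of its genes read above background on both arrays. Tcp1, the first subunit, read 6.06 in the wild type and 6.76 on the knockout-labelled array, which is 0.70 or 1.62-fold higher. Cct4 read 7.69 and 8.16 (0.46) and Cct2 read 8.91 and 9.33 (0.41). Cct5 read 7.66 and 8.01 (0.35), Cct3 read 6.63 and 6.96 (0.33), and Cct8 read 7.44 and 7.74 (0.30). All 6 were higher on the knockout-labelled array, where 66.6% of all genes above background were above 0 as deposited. They stayed above 0 after loess correction and after quantile normalization, where 50.2% and 51.3% of all genes past the level filter were. Centring raises every difference alike and could not change this. Their SD over genes was 0.15. Each also lay above its local median, Cct8 by 0.15 and Tcp1 by 0.52.

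The other CCT genes on the arrays gave no such reading. Cct7 was under the negative control level on both arrays, at 3.86 and 3.67 (-0.18). The testis form Cct6b (1.67 and 1.35) and Cct8l1 (1.28 and 1.70) were under the level filter. Over the 7 tested CCT genes the median was 0.35, which was 0.20 after the loess correction and 0.24 after quantile normalization of the table.

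Cct2 is a neighbour of Yeats4 on the chromosome, with 1 gene between them, Frs2, which was not analysed here. Its difference of 0.41 was 0.07 above the median of the other 6 tested CCT genes (0.34), and within their range. It lay 1.59 local spreads above the local median, and Tcp1 and Cct4, which are no neighbours of Yeats4 in the 5 named places on each side, lay 1.78 and 1.56 above theirs. The nearest named genes around Yeats4 did not show the same direction. Lyz2, a lysozyme of myeloid cells, read 9.77 and 9.51 (-0.26), Cpsf6, a factor of mRNA 3′ end formation, read 6.86 and 6.77 (-0.09), and Rab3ip (-0.16) and Lyz1 (-0.19) also lay below 0. Rab3ip was above background in the wild type only and Lyz1 on neither array. The other 5 named neighbours, Myrfl, Best3, Lrrc10, 9530003J23Rik and Cpm, were under the level filter. Those differences ran from -1.49 (Cpm) to 0.08.

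Genes that work with CCT differed in both directions. The list of prefoldin subunits, phosducin-like cofactors, tubulin cofactors, tubulin and actin had 18 measured genes, of which 5 read higher by 1.2-fold or more and 3 lower, where 31.2% and 19.1% of all genes did, with a median of 0.01. The cofactor Pdcl3 (4.29 and 5.03, 0.75) and the prefoldin subunit Pfdn6 (4.61 and 5.25, 0.64) were highest, both above background on the knockout-labelled array only, followed by Pdcd5 (6.32 and 6.94, 0.61) and Txndc9 (0.59). The tubulin cofactor Tbcc read 6.23 and 5.69 (-0.53) and was lowest, followed by the prefoldin subunit Pfdn2, near background, at -0.39. The main clients differed little, with Actb at 11.14 and 11.12, Tubb5 at 10.45 and 10.38 and Tuba1b at 10.15 on both arrays.

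Among families with more than 1 tested gene, HSP90 gave the highest median, 0.56 over only 2 genes. Hsp90aa1, the inducible cytosolic form, read 7.70 and 8.34 (0.64, 1.56-fold), which lay 2.47 local spreads above the local median and was number 490 from the lowest of 500. Hsp90b1, the ER form GRP94, read 8.64 and 9.11 (0.47, 1.39-fold), 1.86 spreads above. After the loess correction the family median was 0.42.

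HSP90 and HSP70 co-chaperones outside the chaperone list leaned the same way. Of 26 measured genes 25 passed the filter, with a median of 0.29, and 14 read higher by 1.2-fold or more and 0 lower, where 31.2% and 19.1% of all genes did. The 14 include the heat shock factor gene Hsf2, near background (0.39). The highest were Tomm70a, the outer mitochondrial membrane receptor that takes clients from both (5.77 and 6.39, 0.63), and the HSP90 partner Chordc1 (5.10 and 5.71, 0.61). The adaptor Stip1, which passes clients from HSP70 to HSP90, read 7.20 and 7.68 (0.48), and the kinase co-chaperone Cdc37 read 5.76 and 6.22 (0.47). The lowest were Sgta (6.63 and 6.59, -0.04) and the steroid receptor immunophilin Fkbp5 (7.15 on both arrays), and the HSP90 activator Ahsa1 was at 0.12.

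The HSP70 and HSP110 genes above background on both arrays ranged from 0.02 to 0.49. Hspa5, the ER form BiP, read 9.31 and 9.81 (0.49, 1.41-fold), 2.18 local spreads above the local median. Hspa13, a microsomal HSP70, read 5.65 and 6.09 (0.45), and Hspa9, the mitochondrial form mortalin, read 5.24 and 5.60 (0.35). Both lay within 1 spread of the local median. The cytosolic nucleotide exchange factor Hspa4 read 7.44 and 7.48 (0.03), and the ribosome-associated Hspa14 read 5.30 and 5.32 (0.02), and both were below 0 after the loess correction and after quantile normalization.

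The heat-inducible HSP70 genes were at or near background. Hspa1a read 4.87 and 4.68 (-0.19), above background in the wild type only and there at least 1.05-fold higher than on the other array. Its near-identical copy Hspa1b read 3.51 and 3.68 (0.17). Probes may not tell these copies apart, so the values are uncertain. Of the rest near background, the HSP110 gene Hsph1 (0.58) and Hspa2 (0.52) were highest, while Hspa4l was at 0.01 (below 0 after the loess correction and after quantile normalization) and Hspa12b at -0.17. Hspa12a and Hspa1l were under the filter, at -0.15 and -0.22. The family median of the 11 tested genes was 0.17, and it was 0.35 for the 5 above background on both arrays. Hspbp1, an exchange factor for HSP70, read 5.73 and 6.30 (0.58, 1.49-fold), 1.26 spreads above the local median. Hspbap1, named for its binding of Hspb1, was under the filter (0.19).

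The mitochondrial chamber genes read higher, as mortalin did. Hspd1 (HSP60) read 5.34 and 5.90 (0.55, 1.47-fold) and its lid Hspe1 (HSP10) read 7.19 and 7.51 (0.32). The pair whose shared promoter is printed above thus differed in 1 direction, and Hspd1 lay 1.13 and Hspe1 0.66 local spreads above the local median. Of the 8 mitochondrial chaperone genes 7 were above 0, where 58.2% of all genes were, with a median of 0.34. Dnajc11, of the inner membrane organising system, was the exception (5.53 and 5.44, -0.09). The import motor J protein Dnajc19 read 5.92 and 6.32 (0.40) and its relative Dnajc15 read 5.02 and 5.09 (0.06, and below 0 after the loess correction and after quantile normalization), while Dnaja3, the J protein partner of mortalin, was near background (0.46).

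Mitochondrial import, folding and protease genes outside the chaperone list had a median of 0.44 over 13 tested genes, above that of the co-chaperone, heat shock factor, CCT partner, ER and immediate early lists. Of these 11 read higher by 1.2-fold or more and 0 lower, where 31.2% and 19.1% of all genes were. Trap1, the mitochondrial HSP90, read 6.15 and 6.98 (0.84, 2.18 spreads above the local median), and the protease Htra2 read 5.81 and 6.44 (0.62). The exchange factor Grpel2, near background, was lowest (-0.09), and the import receptor Tomm20 read 6.72 and 6.97 (0.25). Grpel1, the other exchange factor of mortalin, read 5.87 and 6.25 (0.38).

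The ER chaperone genes did not all read in 1 direction. The 3 genes with an ER stress response element, Hspa5, Hsp90b1 and Dnajc3, differed by 0.49, 0.47 and 0.46. That element was chosen after these values were seen, so the grouping is not an independent result. Dnajc3, a J protein partner of BiP, read 6.29 and 6.74, and Dnajc10, a disulfide reductase with a J domain, read 7.06 and 7.48 (0.42). Dnajb11, a lumenal J protein under the negative control level on both arrays, was at 0.30, and Dnajc25, also near background, at 0.34. Dnajb9, a lumenal J protein too, did not share the direction (6.15 and 6.11, -0.04). Dnajb12 and Dnajb14, which sit in the ER membrane with their J domain in the cytosol, read 5.253 and 4.999 (-0.25) and 4.99 and 4.85 (-0.14). Dnajc1 was at 0.10, which turned below 0 after the loess correction and after quantile normalization, and Dnajc16, near background, at 0.10. Over the 12 ER chaperone genes the median was 0.32.

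ER genes outside the chaperone list were mixed too. Among 19 of them, 10 read higher by 1.2-fold or more and 2 lower, where 31.2% and 19.1% of all genes did, with a median of 0.30. They were led by the disulfide isomerase Pdia6 (6.89 and 7.76, 0.87) and Creld2 (5.26 and 5.86, 0.60), and they included the lectin chaperones Calr (10.01 and 10.48, 0.48) and Canx (6.73 and 7.24, 0.52) and the BiP exchange factor Hyou1 (7.42 and 7.83, 0.41). Sil1, the other BiP exchange factor, read 5.07 and 5.01 (-0.06). The stress-induced factor Ddit3, also called CHOP, was lowest, at 6.18 and 5.87 (-0.31), followed by the stress sensor Eif2ak3, also called PERK (5.81 and 5.51, -0.30). Atf4 (8.26 and 8.31) and Herpud1 (8.07 and 8.09) hardly differed. Folding enzymes and the CHOP arm of the response thus did not read in 1 direction. Most macrophage markers were higher and most T cell, B cell and eosinophil markers lower on the same array, and their part here was not tested.

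**Figure D3:**
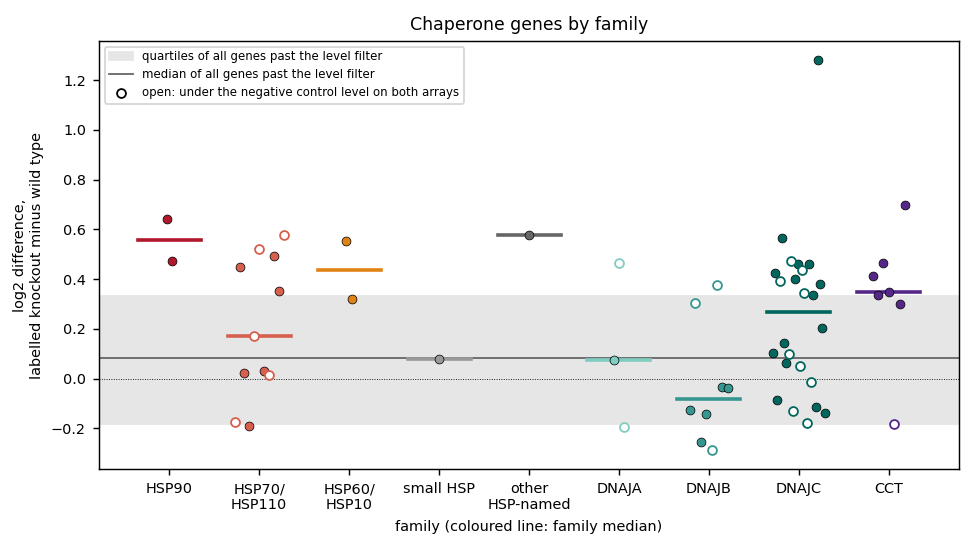
Difference between the arrays (log2, knockout-labelled less wild type) for each of the 59 chaperone genes past the level filter, by family, with the family median as a coloured line. Open symbols were under the negative control level on both arrays, the grey band runs between the quartiles of all 10881 genes and the grey line is their median (0.08). The medians of HSP90 (0.56), HSP60 with HSP10 (0.44) and CCT (0.35) lie above the band, as does the single other HSP-named gene, Hspbp1 (0.58), and that of DNAJB (-0.08) lies below the line of all genes.

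Among genes past the level filter, the J proteins of the B class had the lowest family median. Without the filter their median was -0.017, and that of small HSP was lower, at -0.31. All 5 DNAJB genes above background on both arrays were below 0, where 33.1% of all genes above background were, but Dnajb6 and Dnajb9 turned above 0 (0.0047 and 0.00047) when the arrays were centred. Of these 5 Dnajb12 (-0.25) and Dnajb14 (-0.14) were lowest, and Dnajb2, near background, was lowest of the family (-0.29). Dnajb1, the main heat-inducible J protein, read 6.91 and 6.78 (-0.13), and lay 1.04 local spreads below the local median. Dnajb6, a suppressor of protein aggregation whose promoter holds the heat shock element printed above, read 7.24 and 7.21 (-0.03). Of the 3 tested DNAJB genes near background, Dnajb4 (0.37) and Dnajb11 were above 0 and Dnajb2 below. The family median was -0.08 over 8 genes, and it was -0.21 after the loess correction. In the A class Dnaja2 read 5.22 and 5.30 (0.07, but -0.042 after the loess correction), and Dnaja3 and Dnaja4 were near background, at 0.46 and -0.19.

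The C class, whose members share little but the J domain, was mixed. Among 24 tested members 12 read higher by 1.2-fold or more and 0 lower, where 31.2% and 19.1% of all genes did, with a median of 0.27. Dnajc6, which encodes auxilin, an uncoating factor of clathrin vesicles known best from neurons, read 3.88 in the wild type and 5.16 on the other array. As the wild-type reading was below background, Dnajc6 was at least 1.28-fold higher, or 0.35 on the log2 scale, and its deposited difference of 1.28 has no measured rank.

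Other J proteins of the C class above background ranged widely. Dnajc13, an endosomal J protein that also acts in clathrin dynamics, read 5.37 and 5.93 (0.56, 1.18 spreads above the local median). Dnajc2, the ribosome-bound partner of Hspa14, read 6.19 and 6.65 (0.46), so the parts of that pair differed unequally. Dnajc9, a histone chaperone with a J domain, was lowest of the class among the genes above background, at 6.75 and 6.62 (-0.14, 1.13 spreads below the local median). Dnajc5, the cysteine string protein of secretory vesicles, read 5.01 and 4.90 (-0.11). The spliceosomal Dnajc8 read 6.79 and 6.99 (0.20), the HSP70 and HSP90 adaptor Dnajc7 read 5.16 and 5.54 (0.38), and the mitochondrial Dnajc4 read 5.05 and 5.39 (0.34). Dnajc14 was at 0.14. The 9 tested DNAJC genes near background ran from -0.18 to 0.47. Over the 6 J proteins of the ribosome, spliceosome and nucleus the median was 0.15, with Dnajc17 (0.47, near background) and Dnajc2 highest and Dnajc9 and Dnajc21 (0.05, near background, and below 0 after the loess correction) lowest.

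The heat-inducible genes did not differ as a block. Of the 8 tested chaperone genes of the heat-inducible list 5 were at least 1.2-fold higher, where 31.2% of all genes were, with a median of 0.35. These were Hsp90aa1, Hsph1, Hspd1, Dnajb4 and Hspe1, of which Hsph1 and Dnajb4 were near background, while Dnajb1 and Hspa1a were below 0 and Hspb1 was under the filter. Beside the chaperones, the wider list of heat shock factor genes and targets held Chordc1 (0.61) and Stip1 (0.48) as its highest and Bag3 (4.67 and 4.76, 0.09, near background) and Ahsa1 (0.12) as its lowest tested genes, and its 6 tested genes outside the chaperone list had a median of 0.40. Those 6 genes are all in the co-chaperone list above too, so they add no separate genes to it. For the 4 genes with a full heat shock element the differences were 0.55 (Hspd1), 0.32 (Hspe1), 0.58 (Hsph1, near background) and -0.03 (Dnajb6). The short element went the other way, with a median of 0.17 over the 9 tested chaperone genes with it. The 40 tested with a window but without it had a median of 0.30. For the CCAAT box the medians were 0.36 over 20 genes with it and 0.10 over 29 without.

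Immediate early genes, which are known to respond to cell handling, leaned lower. Among 18 of them, 1 read higher by 1.2-fold or more and 4 lower, where 31.2% and 19.1% of all genes did, with a median of -0.12, and 10 lay more than 1 local spread below the local median, where 15.2% of all genes did. Ier3 (5.99 and 6.37, 0.39) and Egr2, near background, (0.26) were highest, and Klf6 (7.39 and 6.87, -0.52) and Fosl2 (5.89 and 5.44, -0.44) lowest. Fos read 8.99 and 9.19 and Jun read 8.49 and 8.68. The part of cell handling in these and in the chaperone values was not tested.

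**Figure D4:**
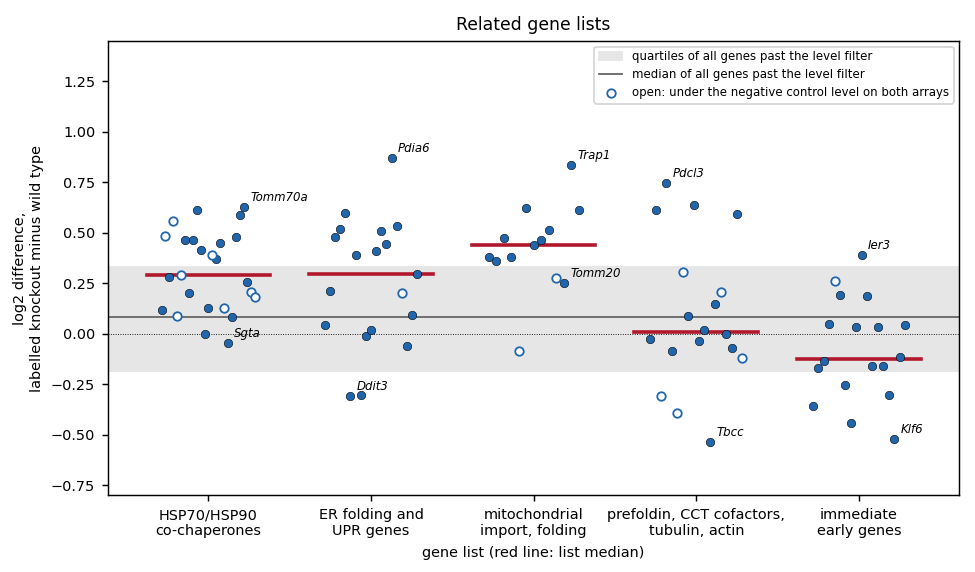
Difference between the arrays (log2, knockout-labelled less wild type) for genes outside the chaperone list, by gene list, with the list median as a red line and open symbols for genes under the negative control level on both arrays. The grey band and line are the quartiles and the median of all genes past the level filter. The median is 0.44 for the mitochondrial list, 0.30 for the ER list, 0.29 for co-chaperones, 0.01 for CCT partners and -0.12 for immediate early genes.

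Small HSP genes read at or below background. Of the 8 with a probe set, 7 were under the level filter on the mean of both arrays, with differences from -0.74 to -0.06 that have no reading above background behind them. Only Hspb6 passed the filter, at 4.74 and 4.82 (0.08), and it was above background on the knockout-labelled array only. This family includes Hspb1 (HSP27), read at 2.65 and 2.34, and Hspb11, which carries the family name but is a subunit of the intraflagellar transport machinery, at 2.27 and 1.59. The 13 other chaperone genes under the filter ran from -0.33 to 0.55.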

How the data were processed

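RNA of 1 wild-type and 1 Yeats4 knockout sample was measured on Affymetrix arrays. The deposited table holds log2 values per probe set, made by the authors with RMA in Affymetrix Power Tools, per the submitters' processing notes (background correction, quantile normalization and probe summary), so a change of total RNA per cell is not visible. The sources used here give no versions and no genome build, and the number of arrays limits the precision. The array model in the design text and the style of the table's probe set names differ, so the array type is uncertain and gene names rest on the platform annotation. Symbols came from the platform annotation (19572 of 29129 probe sets, each with 1 symbol), taking the brightest probe set per gene; all 79 chaperone gene identifiers were found in the GRCm38.p6 table, used for names and gene order. Values were used without further scaling. The members and lists were chosen with earlier results of these data known, and the 5/4-fold, 1.2-fold, 1.3-fold and 1-spread counts and the ER stress response element after seeing these values. Related lists were the co-chaperones, heat shock factor targets, CCT partners, ER, mitochondrial, nuclear, immediate early and blood cell marker genes. The text names all HSP90, HSP70, HSP60, HSP10 and CCT genes with a probe set, the 4 highest and 4 lowest of other families above background, members 2-fold apart, the 2 highest and 2 lowest of each related list except most marker lists, given by counts, and the 5 nearest named neighbours of Yeats4 on each side; others are examples chosen after their values were seen. Python 3.11.15, numpy 2.4.6, pandas 2.3.3 and statsmodels 0.14.6 were used. The local spread was recomputed on data simulated with that same spread. That checks the calculation only and says nothing of the noise of the arrays. Protein sequences were not used here.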

Additional observations from a re-analysis of the deposited data

How the results depend on the processing

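Values were recomputed under 9 other settings, and a median counted as moved at 0.1 or more. With no level filter the median was 0.032 for HSP70 and HSP110, -0.31 for small HSP and 0.13 for all chaperone genes, and 8 were at least 1.2-fold lower. With filters at the 75th percentile or at the negative controls 0 genes were 2-fold higher and 0 were 1.2-fold lower, and HSP70 and HSP110 stood at 0.35 with the first. After the loess correction the medians were 0.42 (HSP90), 0.29 (HSP60 with HSP10), -0.042 (DNAJA), -0.21 (DNAJB), 0.20 (CCT) and 0.18 (all), with 3 genes 1.2-fold lower. Of all genes past 1.2-fold 50.3% were then higher, 51.0% after quantile normalization and 62.1% as deposited. After quantile normalization the medians were 0.32 (HSP60 with HSP10), -0.031 (DNAJA), -0.20 (DNAJB) and 0.24 (CCT), with 3 genes lower. With readings under background raised to the negative control level they were 0.0000 (HSP70 and HSP110), 0.032 (DNAJC) and 0.017 (all), and 0 genes were 2-fold higher or 1.2-fold lower. At 1.5-fold 3 were higher in place of 1 at 2-fold. Of the other small folds, all chosen after seeing the data, 5/4-fold left 0 lower as deposited and 15 higher after the loess correction, and 1.3-fold left 0 lower as deposited and 13 higher and 0 lower after it. Centring raised every difference by the same small amount (array medians 2.91 for the wild type and 2.87), so it could move no median by 0.1. It left 0 genes 1.2-fold lower. Averaging probe sets could change none of these values, since each chaperone gene has 1 probe set. The cause was not tested. No paired analysis was possible because each genotype has 1 array.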
